A study of Mus musculus with 12 samples.

Results

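The small leucine-rich proteoglycans described here were Prelp, Ogn, Aspn, Omd, Fmod, Bgn, Dcn and Lum, 8 of the 55414 genes in the deposited table, found there by gene symbol. They were chosen with the difference between the genotypes already known, so that their differences between genotypes, and the calls a fit over all genes gave them, are a description and no independent test. Whole-lung RNA was sequenced from 12 C57BL/6 J mice exposed to lipopolysaccharide (LPS), a bacterial cell wall component that causes acute lung injury (ALI), and the lungs were taken on day 4. In 6 mice of the genotype IL-10 B-KO, here called knockout, a floxed Il10 gene was deleted by Cre recombinase expressed from the Mb1 (Cd79a) locus, which is active in B cells. The other 6 mice had the genotype IL-10 B-WT, here called control, and the series text calls them wild type, without saying whether they carried the floxed alleles or the Cre. All 12 mice received LPS, no lungs without LPS are among the samples, and the age of the mice is not given in the sources used here. Nothing in the labels gives a batch or a litter. The values are TPM, transcript abundances scaled for the length of the gene and to the same total in each library, so that levels can be compared between genes within a lung, but which keep no sequencing depth.

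These proteins have a core of leucine-rich repeats and are secreted into the extracellular matrix, mostly by fibroblasts and related mesenchymal cells. They bind collagen and set the width and spacing of collagen fibrils, and many carry chondroitin, dermatan or keratan sulfate chains. Decorin (Dcn), biglycan (Bgn) and asporin (Aspn) form class I, fibromodulin (Fmod), lumican (Lum), PRELP (Prelp) and osteomodulin (Omd) form class II, and osteoglycin (Ogn) belongs to class III. Decorin and biglycan also bind transforming growth factor beta (TGF-β), and soluble biglycan is known as a ligand of Toll-like receptors.

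The genes lie in 4 places on the mouse genome (GRCm38, GENCODE release M21). Prelp (ENSMUSG00000041577) is on chromosome 1, 133910304 to 133921414, minus strand, and Fmod (ENSMUSG00000041559) follows 115.8 kb away on the plus strand, 134037254 to 134048277. Aspn (ENSMUSG00000021388, 49544443 to 49567565), Omd (ENSMUSG00000048368, 49582462 to 49592822) and Ogn (ENSMUSG00000021390, 49608046 to 49624501) stand in a row on the plus strand of chromosome 13. Dcn (ENSMUSG00000019929, 97479609 to 97518143) and Lum (ENSMUSG00000036446, 97565128 to 97572703) are neighbours on the plus strand of chromosome 10, with 47 kb between them. Bgn (ENSMUSG00000031375, 73483602 to 73495933, plus strand) is on chromosome X.

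The promoters of Prelp and Ogn, the members called lower in knockout lungs, and of Bgn, the most abundant member, are shown to let their sequences be compared (RefSeq, GRCm38.p6, 250 bases before to 50 bases after the transcription start, on the strand of the gene). Capitals mark matches, on either strand, to the TATA box TATAAA, the GC box GGGCGG, the SMAD element CAGAC, the MCAT element GGAATG and the CArG box.
Prelp, chr1:133921352-133921651, minus strand: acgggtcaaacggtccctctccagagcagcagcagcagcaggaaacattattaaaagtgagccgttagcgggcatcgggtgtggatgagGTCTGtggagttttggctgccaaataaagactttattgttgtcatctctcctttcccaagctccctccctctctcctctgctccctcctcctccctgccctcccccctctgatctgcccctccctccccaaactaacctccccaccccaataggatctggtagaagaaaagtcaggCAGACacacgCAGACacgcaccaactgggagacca
Ogn, chr13:49607765-49608064, plus strand: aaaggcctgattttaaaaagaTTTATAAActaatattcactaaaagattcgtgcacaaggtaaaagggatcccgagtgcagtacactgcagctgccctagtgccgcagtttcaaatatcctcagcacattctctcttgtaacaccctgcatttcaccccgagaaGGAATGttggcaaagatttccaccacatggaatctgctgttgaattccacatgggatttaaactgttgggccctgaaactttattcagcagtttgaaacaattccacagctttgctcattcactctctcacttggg
Bgn, chrX:73483351-73483650, plus strand: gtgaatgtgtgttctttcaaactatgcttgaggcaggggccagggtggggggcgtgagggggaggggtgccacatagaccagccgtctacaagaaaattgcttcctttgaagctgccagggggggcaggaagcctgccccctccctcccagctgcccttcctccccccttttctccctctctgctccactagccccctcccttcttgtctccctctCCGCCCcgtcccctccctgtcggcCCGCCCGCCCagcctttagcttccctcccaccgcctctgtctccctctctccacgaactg
The Prelp window held CAGAC at 3 places, and 49.6% of the 32851 promoters of this length held it at least once. The Ogn window held TATAAA on both strands at overlapping positions and GGAATG once, which 13.6% and 14.7% of promoters held. The Bgn window held GGGCGG at 3 places, of which 2 overlapped, and 35.7% of promoters held it. The CArG box, held by 1.63% of promoters, matched none of the 6 member promoters in the table. The GC content of the windows was 63.7% for Bgn, 55.3% for Prelp and 42.3% for Ogn, beside a median of 52.7% over all promoters. A match is a description of the letters and not of a site in use.

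The lungs did not all resemble their group. The summed level of 6 leukocyte markers was 11944.1 TPM in control replicate 1, against 670.6 to 5485.3 TPM in the other control lungs. It was 3445.4 TPM in knockout replicate 2, against 7111.7 to 10514.6 TPM in the other knockout lungs. Most of this sum in every lung was Lyz2, at 11125.9 TPM in control replicate 1 and 3293.3 TPM in knockout replicate 2. Cd79a, a component of the B cell receptor and the locus that carries the Cre, was at 15.3 TPM or more in every control lung. It was listed at 0, 4.35, 0, 0.05, 0 and 5.73 TPM in knockout replicates 1 to 6. The immunoglobulin genes summed to 2458.9 to 152645.5 TPM in control lungs, highest in replicate 2 and at most 21760.8 TPM in the others. They summed to 643.1 and 529.5 TPM in knockout replicates 2 and 6 and to 19.7 to 70 TPM in the other knockout lungs. The groups thus also differed in B-lineage RNA, which was close to absent in knockout replicates 1, 3, 4 and 5. The part of this in the members' values was not tested beyond rescaling without the immunoglobulin genes. Il10 itself was listed at 0.88 TPM or less in all 12 lungs and overlapped between the genotypes. The lung epithelial markers Sftpc and Scgb1a1 were at 2548.3 TPM or more in every lung, and the 10 cartilage markers summed to at most 1.91 TPM, with Snorc listed at 0 throughout.

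Prelp encodes a collagen-binding protein with a basic end that binds heparan sulfate. It ranged from 42.3 to 99.8 TPM (median 74.4) in control lungs and from 13.8 to 34.3 TPM (median 27.6) in knockout lungs. Every knockout lung was below every control lung, and the lowest control lung was replicate 1. The means were 76.5 ± 20.6 and 26.3 ± 7.86 TPM (SD, n = 6 each), so that the knockout mean was 34.4% of the control mean, a difference of -1.51 in log2(TPM + 1) with a standard error of 0.25. Without the 2 lungs that stood apart by their leukocyte markers the difference was -1.71.

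Ogn encodes osteoglycin, also called mimecan. It ranged from 33.6 to 82.9 TPM (median 55.6) in control lungs and from 10.7 to 27.0 TPM (median 20.4) in knockout lungs, again with no overlap and with control replicate 1 the lowest of its group. The means were 56.7 ± 15.9 and 19.9 ± 6.20 TPM (SD, n = 6 each), a log2 difference of -1.48 with a standard error of 0.24, or -1.59 without the same 2 lungs. Prelp and Ogn thus stood 2.90 and 2.85 times higher in the mean of control lungs. Their ratio within a lung was 1.35 ± 0.138 in control lungs and 1.38 ± 0.413 in knockout lungs (SD, n = 6 each).

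**Figure D1:**
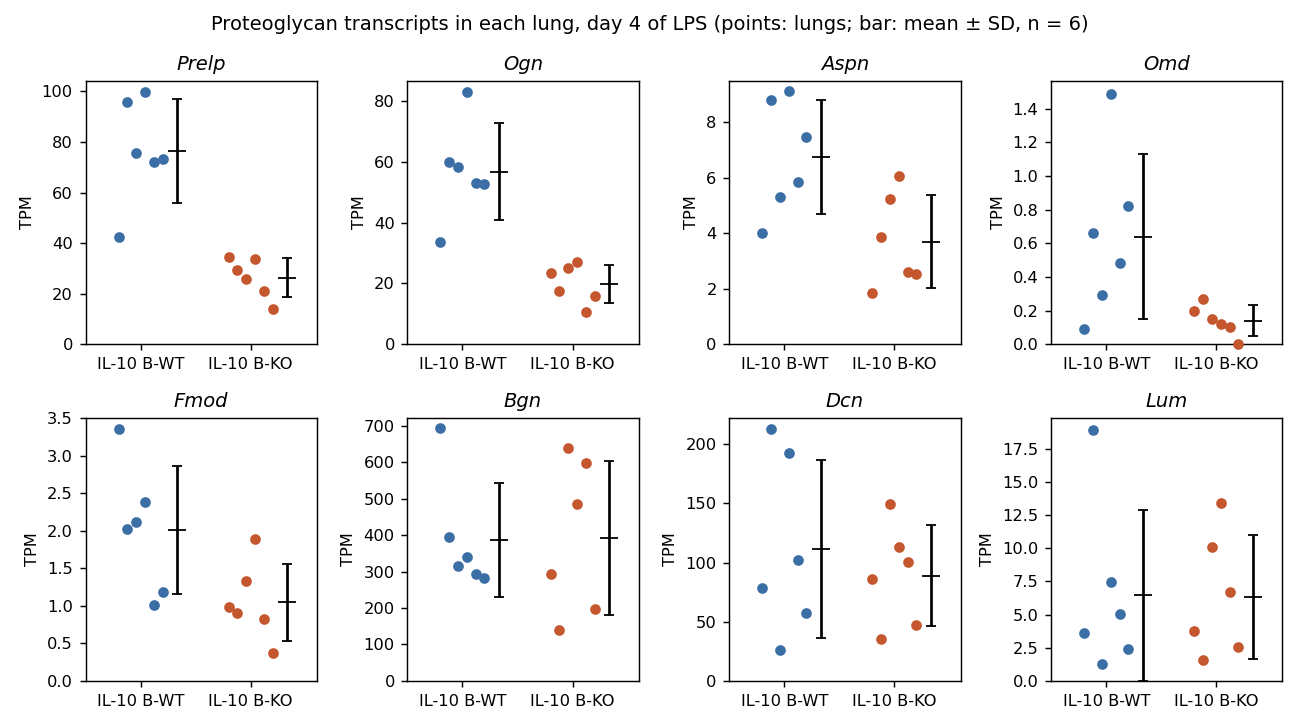
TPM of the 8 genes in each lung (points, replicates 1 to 6 from left to right within a genotype), with the mean and SD beside them (n = 6). The knockout lungs lie below all control lungs for Prelp (at most 34.3 against at least 42.3 TPM) and Ogn (at most 27.0 against at least 33.6 TPM) and overlap them for the other 6 genes.

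Of the 8 members, 7 passed the filter of at least 1 TPM in at least 6 lungs, along with 15148 genes in all. In limma on log2(TPM + 1) with Benjamini-Hochberg adjustment, 2 members, Prelp and Ogn, were called lower in knockout lungs at an adjusted p of at most 0.05 and a log2 difference of at least 1 in size. Among all genes tested, 0.469% were called lower, and in 0.924% every knockout lung was below every control lung. Nothing is read from this count, because the genes were chosen on the same contrast. Both calls were lost without control replicate 4, control replicate 5 or knockout replicate 5, that of Ogn without knockout replicate 1 and that of Prelp without knockout replicate 3. Over these fits the log2 differences stayed between -1.60 and -1.43 for Prelp and between -1.55 and -1.32 for Ogn.

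Aspn and Omd lie next to Ogn on chromosome 13. Aspn, asporin, has a stretch of aspartate residues and binds collagen and TGF-β. It ranged from 3.99 to 9.11 TPM (median 6.64) in control lungs and from 1.86 to 6.07 TPM (median 3.22) in knockout lungs, where 4 of 6 lungs were below every control lung. The log2 difference was -0.76 with a standard error of 0.26, and knockout replicates 3 and 4 lay among the control lungs.

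Omd, the keratan sulfate proteoglycan first known from bone, was near the limit of the table and did not pass the filter, with 1 lung at 1 TPM or more. It was listed at 0.09, 0.66, 0.29, 1.49, 0.48 and 0.82 TPM in control replicates 1 to 6. In knockout replicates 1 to 6 it was listed at 0.20, 0.27, 0.15, 0.12, 0.10 and 0 TPM. All control lungs except replicate 1 were above every knockout lung, but the number of reads behind such values is unknown.

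The row on chromosome 13 continues with Ecm2, an extracellular matrix protein that also carries leucine-rich repeats, 11.7 kb before Aspn. Ecm2 was at 7.63 ± 3.13 TPM in control and 2.01 ± 1.15 TPM in knockout lungs (SD, n = 6 each), a log2 difference of -1.51 with a standard error of 0.33, and it missed the threshold (limma adjusted p = 0.0710). On the other side of the row, 28.6 kb after Ogn, the nucleolar protein gene Nol8 was at 4.61 ± 1.64 and 4.83 ± 0.673 TPM (log2 difference 0.10, standard error 0.21). The 4 matrix genes in this row thus had lower means in knockout lungs, and Nol8 had about the same mean in both.

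On chromosome 1, both neighbours of Prelp had lower means in knockout lungs, with overlapping groups. Fmod, fibromodulin, which binds type I collagen at a site that lumican also uses, ranged from 1.01 to 3.36 TPM (median 2.07) in control lungs and from 0.37 to 1.89 TPM (median 0.94) in knockout lungs. In 4 of 6 knockout lungs it was below every control lung, and the log2 difference was -0.54 with a standard error of 0.22 at these low levels. Optc, the opticin gene, begins 2.31 kb beyond the other end of Prelp on the same strand. Its mean was 5.77 ± 4.59 TPM in control and 2.36 ± 1.45 TPM in knockout lungs (SD, n = 6 each), a log2 difference of -0.77 with a standard error of 0.48 that missed the threshold (limma adjusted p = 0.502).

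The 2 most abundant members, Bgn and Dcn, and the rarer Lum overlapped widely between the genotypes. Bgn, biglycan, ranged from 282.9 to 694.2 TPM (median 328.3) in control lungs and from 139.7 to 638.4 TPM (median 388.9) in knockout lungs. Its means were 387.0 ± 155.8 and 391.8 ± 210.9 TPM (SD, n = 6 each), and the log2 difference was -0.12 with a standard error of 0.37. The highest control lung was replicate 1, and without it the difference was 0.07.

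Dcn, decorin, ranged from 26.2 to 213.0 TPM (median 90.3) in control lungs and from 35.2 to 149.8 TPM (median 93.6) in knockout lungs. The spread within a genotype was wide, with a coefficient of variation of 67.4% in control lungs against 26.9% for Prelp in the same lungs. The log2 difference was -0.17 with a standard error of 0.49. Lum, lumican, ranged from 1.30 to 18.9 TPM (median 4.33) and from 1.54 to 13.4 TPM (median 5.22), with a log2 difference of 0.08 and a standard error of 0.53. For Bgn, Dcn and Lum the sign of the difference changed under other settings or without single lungs, and standard errors this wide do not show that the genotypes were alike.

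**Figure D2:**
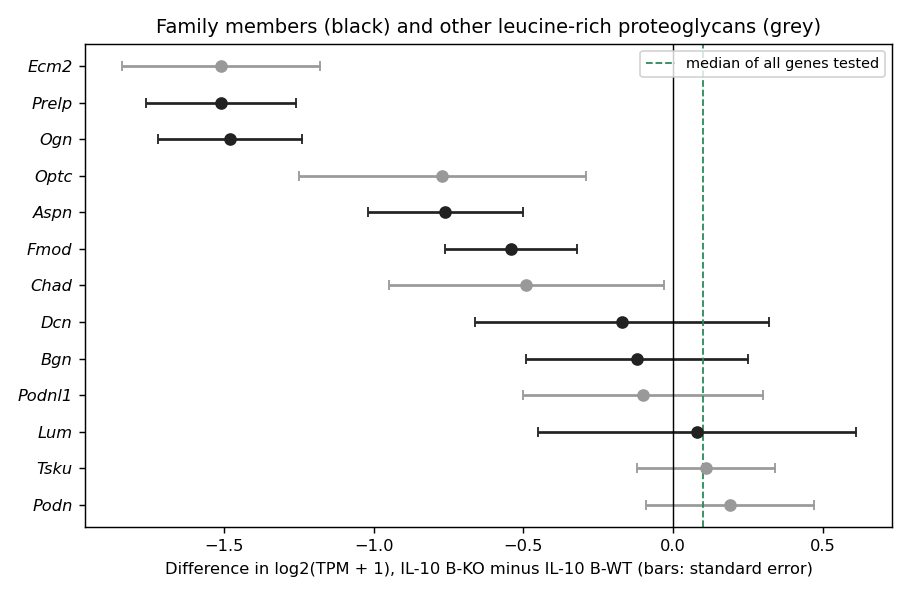
Difference in log2(TPM + 1) between genotypes (knockout minus control) with its standard error for the 7 members past the filter (black) and 6 other leucine-rich proteoglycans (grey), with the median of all genes tested as a dashed line. Ecm2, Prelp and Ogn lie near -1.5, while Dcn, Bgn and Lum lie within a standard error of 0.

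Bgn made up most of the family's transcripts in both genotypes. The 8 transcripts summed to 647.7 ± 169.5 TPM in control and 538.1 ± 258.1 TPM in knockout lungs (SD, n = 6 each). Bgn was 59.3% ± 12.4 of that sum in control and 70.7% ± 6.74 in knockout lungs. Prelp was 12.5% ± 3.93 and 6.04% ± 3.75, and Ogn 9.28% ± 3.06 and 4.49% ± 2.19 (SD, n = 6 each). In control replicate 1, where Bgn was highest, Prelp was 4.92% of the sum, so that the groups overlapped in this share. Per unit of Dcn in the same lung, Prelp was at a median of 0.622 in control and 0.293 in knockout lungs, with overlapping ranges of 0.45 to 2.88 and 0.173 to 0.829.

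From high to low, the order of levels over the 12 lungs was Bgn, Dcn, Prelp, Ogn, Lum, Aspn, Fmod and Omd by the mean of log2(TPM + 1). Gaps that involve a member with a lower level in knockout lungs take in the difference the genes were chosen for, so that the gaps are given by genotype. Bgn exceeded Dcn by 2.03 ± 1.15 on the log2 scale in control and by 2.08 ± 0.27 in knockout lungs (SD, n = 6 each), in 6 of 6 lungs of both. Over all 12 lungs this gap, which involves neither Prelp nor Ogn, had an adjusted p of 0.000854 (two-sided exact sign-flip permutation test, Benjamini-Hochberg over 7 neighbouring pairs).

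Dcn and Prelp were not clearly ordered in control lungs, where Dcn was higher in 4 of 6 lungs by 0.27 ± 1.01, and Dcn was higher in 6 of 6 knockout lungs by 1.62 ± 0.78 (log2 scale, SD, n = 6 each). Prelp exceeded Ogn in 6 of 6 control lungs by 0.42 ± 0.14 and in 5 of 6 knockout lungs by 0.39 ± 0.42. Lum was above Aspn in 1 of 6 control and 4 of 6 knockout lungs (-0.38 ± 0.91 and 0.46 ± 0.79), and these neighbours did not differ beyond their spread. Aspn exceeded Fmod, and Fmod exceeded Omd, in 6 of 6 lungs of each genotype.

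To see which members varied together apart from the genotype, log2(TPM + 1) was centred on the mean of each genotype and compared over the 12 lungs for all 28 pairs. Dcn and Lum, the neighbours on chromosome 10, varied together most closely (Pearson r = 0.92, adjusted p = 0.00351, Spearman rho = 0.97, adjusted p = 0.00119, exact permutation within genotypes). The relation was as close within control lungs (r = 0.93) as within knockout lungs (r = 0.92), and r was 0.90 without the 2 lungs farthest from the median of Dcn. This was the 1 pair of 28 past an adjusted p of 0.05. The lungs share 1 total per library, so that a gene group that takes a large share moves all other TPM of its lung.

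Prelp and Ogn had r = 0.76 and rho = 0.80 (unadjusted p = 0.0109 and 0.00624, adjusted p = 0.102 and 0.0873, exact permutation within genotypes), with r = 0.95 within control and 0.61 within knockout lungs. Prelp and Omd had r = 0.68 (adjusted p = 0.102), and Ogn and Aspn r = 0.64 (adjusted p = 0.146). Fmod had r = 0.21 with Prelp and r = 0.61 with Bgn (unadjusted p = 0.535 and 0.0325, exact permutation). Without the 2 lungs farthest from the median these were 0.61 and 0.36, and Fmod and Prelp had r = -0.36 within control and 0.80 within knockout lungs, so that neither value was stable. Prelp and Bgn had r = -0.12, with -0.69 within control and 0.16 within knockout lungs (adjusted p over the 12 lungs 0.793, exact permutation).

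**Figure D3:**
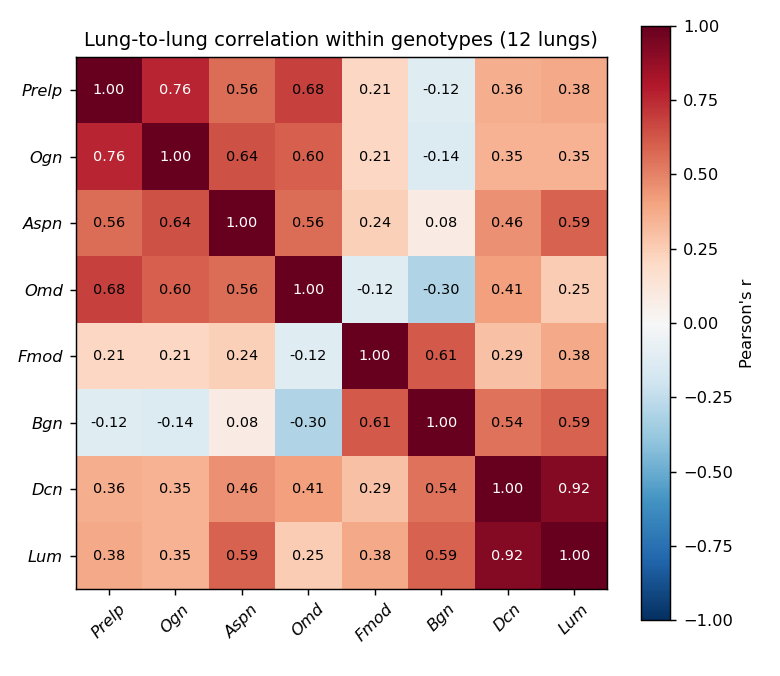
Pearson's r between the 8 members over 12 lungs after each genotype was centred on its own mean. Prelp, Ogn, Aspn and Omd have r of 0.56 to 0.76 with each other, Fmod and Bgn 0.61, and Dcn and Lum 0.92. Other pairs have similar values, among them Aspn and Lum (0.59), Bgn and Lum (0.59) and Bgn and Dcn (0.54). Only Dcn and Lum passed an adjusted p of 0.05 (exact permutation within genotypes).

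Among 11326 genes with a mean of at least 5 TPM, those outside the family most like Prelp within genotypes over the 12 lungs were Ltbp4 (r = 0.96), Dpep1 (0.91), Apod (0.90), Sh3bgr (0.90) and Gm14964 (0.90), given as a description. Ltbp4, a latent TGF-β binding protein of elastic fibres, was at 141.4 ± 53.4 TPM in control and 51.1 ± 22.4 TPM in knockout lungs (SD, n = 6 each), a log2 difference of -1.51 with a standard error of 0.39 that missed the threshold (limma adjusted p = 0.132). The same ranking was then made for other members after their values had been seen. The genes most like Bgn were Col1a2 (r = 0.99), Rcn3 and Adamts2 (0.98 each), and those most like Dcn outside the family were the cardiac muscle genes Nppa (0.90), Tnnc1 (0.88) and Csrp3 (0.87).

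Against the summed level of marker and partner lists, 48 relations were computed in the same way. Bgn followed the 18 collagen fibril partners, such as Col1a1, Col3a1, Lox and Sparc, with r = 0.94 (adjusted p = 0.00611) and rho = 0.91 (adjusted p = 0.0117, exact permutation within genotypes). It was the 1 relation of 48 past an adjusted p of 0.05 by Pearson's r, and r was 0.89 without the 2 lungs farthest from the median of Bgn. Prelp had r = -0.38 with the same list, r = 0.72 with the alveolar fibroblast markers (adjusted p = 0.0808, and rho = 0.83 with an adjusted p of 0.0462) and r = 0.67 with the adventitial fibroblast markers (adjusted p = 0.121, exact permutation). Its r was similar with pulmonary vein cardiomyocyte (0.73), pericyte (0.68) and smooth muscle markers (0.65), with adjusted p-values of 0.0879, 0.121 and 0.121 (exact permutation). Without the 2 lungs farthest from the median of Prelp, r fell to 0.53 for alveolar and 0.46 for adventitial fibroblast markers. For cardiomyocyte, pericyte and smooth muscle markers it fell to 0.49, 0.29 and 0.17. Ogn had r = 0.70 with the adventitial fibroblast markers (adjusted p = 0.102, and rho = 0.89 with an adjusted p of 0.0175, exact permutation). The lists were summed in TPM, so that their most abundant genes weigh most. These were Gsn and Cd34 in the adventitial list (494.2 and 207.8 TPM over the 12 lungs) and Inmt in the alveolar list (522.3 TPM). Aspn had r = 0.79 with smooth muscle markers (adjusted p = 0.0808, and rho = 0.91 with an adjusted p of 0.0117, exact permutation). By rank, Omd with alveolar fibroblast markers and Lum with smooth muscle markers also passed (rho = 0.80 and adjusted p = 0.0499 each, exact permutation).

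**Figure D4:**
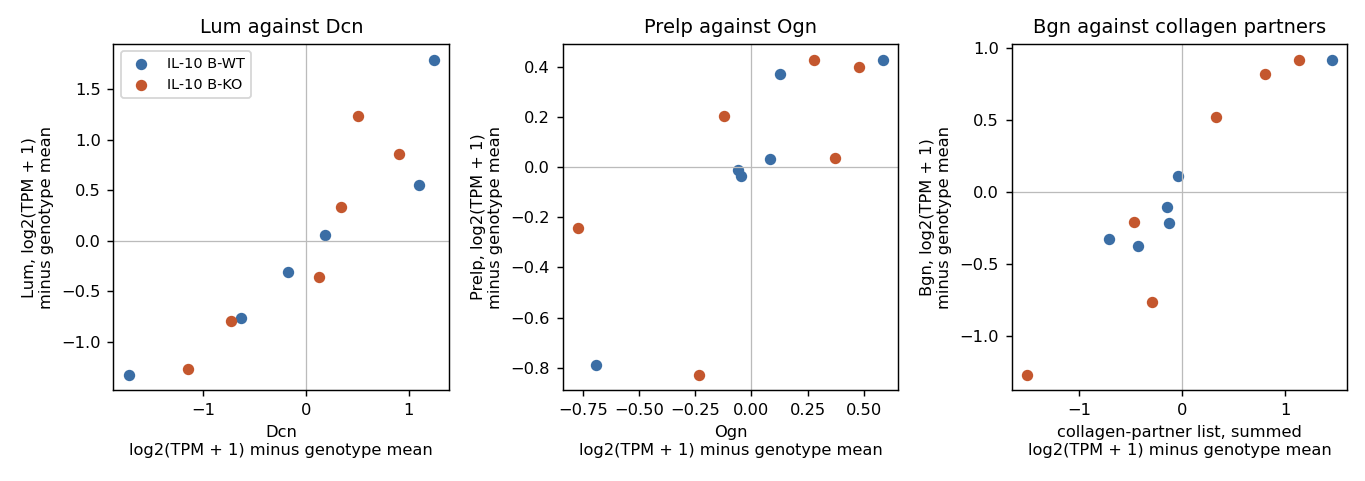
Lum against Dcn, Prelp against Ogn, and Bgn against the summed collagen-partner list, in log2(TPM + 1) minus the mean of the genotype, 1 point per lung. Both genotypes lie along the same diagonal for Dcn and Lum (r = 0.92) and for Bgn and the collagen partners (r = 0.94), with more scatter for Prelp and Ogn (r = 0.76).

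Genes that act with these proteoglycans were then read from the lists, of which 17 were used with 168 genes tested. Of these, 4 genes were called, beside 0.495% of all genes tested, and the median log2 difference of all genes was 0.10. Of all 15148 genes tested, 1899 were at an unadjusted p of at most 0.05 in limma. Among them all, 9580 genes were higher and 5568 lower in knockout lungs, and the counts of each list stand beside these shares. Of 9 other leucine-rich proteoglycans, 6 were tested, with 4 lower, 2 higher and a median log2 difference of -0.29. Limma called 0 of them, and 1 gene, Ecm2, was at an unadjusted p of at most 0.05. The most abundant were Chad, chondroadherin, at 28.4 ± 9.86 and 24.9 ± 17.8 TPM, and Podn, podocan, at 10.3 ± 4.34 and 11.9 ± 4.19 TPM in control and knockout lungs (SD, n = 6 each). Kera, the keratocan gene that follows Lum on chromosome 10, was listed at 0 in all 12 lungs.

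Among other proteoglycan core proteins 16 of 20 were tested, with 6 lower, 10 higher and a median log2 difference of 0.13. Limma called 1, and 7 were at an unadjusted p of at most 0.05. Sdc2, the cell surface heparan sulfate proteoglycan syndecan-2, fell from 22.8 ± 5.52 to 9.69 ± 2.86 TPM (SD, n = 6 each), with no overlap between the groups (log2 difference -1.17, standard error 0.23, limma adjusted p = 0.0392). The most abundant were Srgn, the serglycin of leukocyte granules, at 292.7 ± 68.4 and 410.6 ± 153.1 TPM, and Sdc1, syndecan-1, at 79.0 ± 43.3 and 126.7 ± 28.7 TPM in control and knockout lungs, with adjusted p-values of 0.467 and 0.351 in limma. The enzymes that build and sulfate the chains were listed together with the tyrosine sulfotransferases Tpst1 and Tpst2. Over the 26 tested genes the median log2 difference was 0.09, with 9 lower and 17 higher. Limma called 0, and 4 were at an unadjusted p of at most 0.05. The most abundant, Tpst2, which sulfates tyrosines, and B3gat3, of the linker that joins chain and core, had log2 differences of 0.03 and 0.08 (limma adjusted p = 0.945 and 0.875). The 4 were all lower in knockout lungs, with log2 differences of -1.04 for Chst2, -1.21 for Chst3, -0.56 for Chst15 and -0.65 for Tpst1. Of them, Chst2, a sulfotransferase of keratan sulfate, was at 5.95 ± 1.75 and 2.45 ± 1.23 TPM (SD, n = 6 each, limma adjusted p = 0.140).

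The 18 collagen fibril partners were all tested, with 14 higher and 4 lower means on the log2 scale, beside 9580 higher and 5568 lower over all genes tested. Their median was 0.39, and limma called 0, with 1 gene at an unadjusted p of at most 0.05. Sparc, a collagen chaperone of the matrix, was at 926.8 ± 463.7 and 1222.2 ± 460.3 TPM, and Col3a1 at 147.2 ± 156.3 and 318.6 ± 248.5 TPM in control and knockout lungs (SD, n = 6 each). Limma called 0 of the 11 tested proteases that can cut these proteins, with 2 at an unadjusted p of at most 0.05. The proteases had a median of 0.46, with 10 higher and 1 lower in knockout lungs. Among them Mmp14, a membrane-bound matrix metalloproteinase, was at 90.2 ± 115.2 and 165.5 ± 106.8 TPM (SD, n = 6 each, limma adjusted p = 0.442), and Mmp2, a gelatinase, at 15.8 to 75.0 TPM in control and 18.2 to 102.0 TPM in knockout lungs (limma adjusted p = 0.475).

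In the list of TGF-β, its binding proteins and target genes, 15 genes were tested, with 8 lower and 7 higher. Their median log2 difference was -0.01, with 0 called by limma and 4 at an unadjusted p of at most 0.05. Postn, periostin, was at 216.7 ± 69.7 and 88.7 ± 48.6 TPM, and Tgfbi, a matrix protein induced by TGF-β, at 123.8 ± 175.4 and 375.6 ± 249.4 TPM in control and knockout lungs (SD, n = 6 each), and limma gave adjusted p-values of 0.0961 and 0.328 for them. The 12 receptors and co-receptors of soluble proteoglycans had a median of 0.47, with 10 higher and 2 lower. Limma called 0, and 5 were at an unadjusted p of at most 0.05. Of these, Kdr was lower in knockout lungs (log2 difference -0.71, limma adjusted p = 0.35), and the others were higher. Tlr4 was at 5.95 ± 2.52 and 9.67 ± 3.92 TPM (adjusted p = 0.381), Cd14 at 62.0 ± 83.6 and 152.4 ± 99.8 TPM (adjusted p = 0.328), and Lrp1 at 212.8 ± 88.3 and 291.6 ± 148.5 TPM (SD, n = 6 each, limma adjusted p = 0.685).

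**Figure D5:**
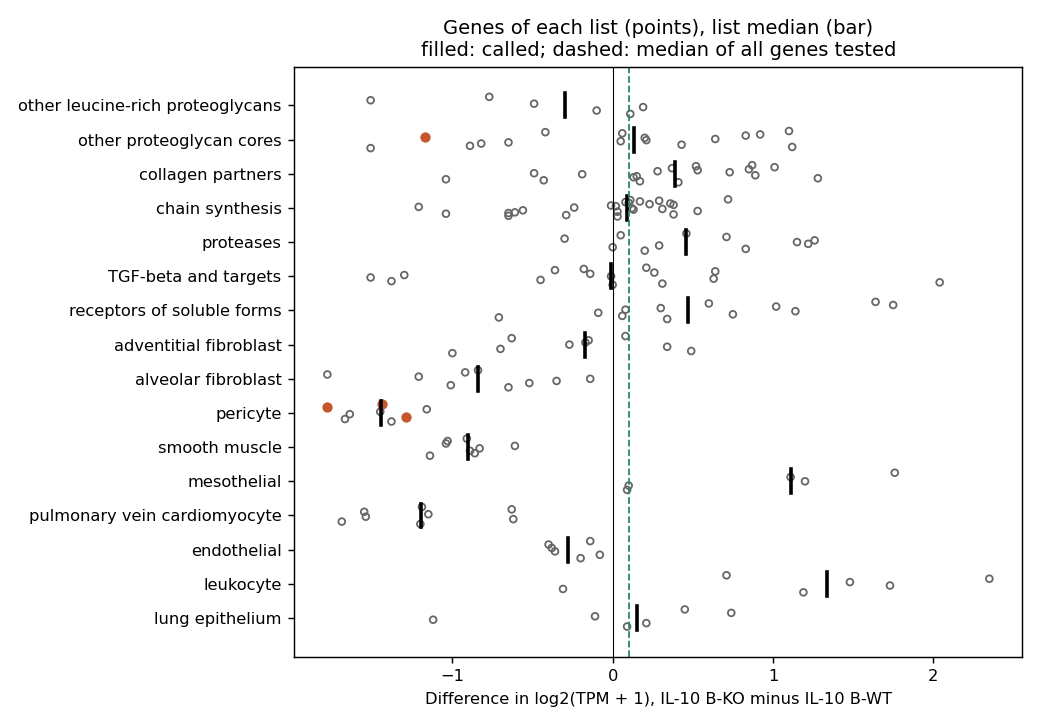
Difference in log2(TPM + 1) between genotypes for each tested gene of 16 lists (points), with the list median as a bar and the 4 called genes filled. The pericyte median lies at -1.45, the alveolar fibroblast median at -0.84 and the collagen-partner median at 0.39.

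Markers of pericytes, alveolar fibroblasts and smooth muscle had lower values in knockout lungs, while adventitial fibroblast markers were mixed and mesothelial markers higher. In whole lung, fewer cells of a type and less RNA per cell cannot be told apart. The lists were chosen with earlier results of these data known, so that their counts and calls are a description and no independent test. All 8 pericyte markers were lower, with a median log2 difference of -1.45, all 8 being at an unadjusted p of at most 0.05, and 3 were called, Pdgfrb (-1.44, limma adjusted p = 0.0456), Notch3 (-1.78, adjusted p = 0.0236) and Trpc6 (-1.29, adjusted p = 0.0195). The most abundant, Postn and Cox4i2, had differences of -1.38 and -1.45 that missed the threshold (limma adjusted p = 0.0961 and 0.177). The sum of the list was 406.4 to 980.9 TPM in control and 108.2 to 479.7 TPM in knockout lungs. All 9 alveolar fibroblast markers were lower, with a median of -0.84 and 0 called by limma, 6 being at an unadjusted p of at most 0.05. Their sum was 351.6 to 1906.8 TPM and 305.0 to 833.1 TPM, with control replicate 1 the lowest of its group. Inmt, the methyltransferase gene that led this list, was at 846.1 ± 543.0 and 198.5 ± 120.9 TPM, and the carboxylesterase gene Ces1d at 183.2 ± 79.6 and 179.4 ± 145.4 TPM (SD, n = 6 each, limma adjusted p = 0.325 and 0.894).

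Adventitial fibroblast markers had 6 of 9 lower, a median of -0.17 and sums of 774.4 to 1649.6 TPM and 590.3 to 898.6 TPM in control and knockout lungs. Gsn, gelsolin, the most abundant of them, was at 674.9 ± 306.7 and 313.5 ± 72.4 TPM, and Cd34, a surface protein also of endothelium, at 176.5 ± 64.2 and 239.2 ± 50.2 TPM (SD, n = 6 each, limma adjusted p = 0.194 and 0.433). All 8 smooth muscle markers were lower (median -0.90, sums 268.0 to 1085.9 and 113.9 to 558.0 TPM), as were all 8 pulmonary vein cardiomyocyte markers (median -1.19, sums 71.9 to 1714.3 and 25.7 to 461.3 TPM) and all 6 endothelial markers (median -0.28). All 5 tested mesothelial markers were higher (median 1.11, sums 12.7 to 109.9 and 54.0 to 149.1 TPM). Of 6 leukocyte markers 5 were higher (median 1.33), and of 6 lung epithelial markers 4 were higher (median 0.15). The 2 most abundant of each list had log2 differences of -0.91 for Acta2 and -0.61 for Tagln of smooth muscle, -1.19 for Myh6 and -1.55 for Myl7 of cardiomyocytes, and -0.20 for Egfl7 and -0.38 for Cldn5 of endothelium. They were 1.76 for Msln and 0.10 for Upk1b of mesothelium, 1.19 for Lyz2 and 1.73 for Cd68 of leukocytes, and -1.12 for Scgb1a1 and 0.45 for Sftpc of epithelium. Limma called 0 genes in these lists, nor in that of cartilage, where 0 of 10 were tested. Of all 15148 genes tested, 9580 were higher and 5568 lower in knockout lungs, and limma put 1899 at an unadjusted p of at most 0.05. In these lists, 1 adventitial, 5 smooth muscle, 2 cardiomyocyte, 0 endothelial, 3 mesothelial, 4 leukocyte and 1 lung epithelial markers were at such a p. The part of these cells in the levels of Prelp and Ogn was not tested. Without control replicate 1, 28 genes of the lists were called in place of 4, and 0 without control replicate 4 or without knockout replicate 1, 3 or 5.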

How the data were processed

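Whole-lung RNA of 6 control (IL-10 B-WT) and 6 knockout (IL-10 B-KO) mice was analyzed. The authors deposited TPM from RSEM for every gene and lung in a single table, rounded to 2 decimals and not pooled. The submitters' processing notes also name fastp, HISAT and GRCm38.p5, without versions. TPM keep no depth, so that no count model, counting error or detection limit was possible, and precision rests on 6 lungs per genotype. Columns were assigned to lungs by their names. Each replicate was a separate mouse.

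The members and lists were chosen with earlier results of these data known. All 8 members are described. From the lists, genes that passed the call and the 2 most abundant were named, with the 5 genes most like Prelp and the genes next to a member. Tlr4, Kdr, Chst2, Chst3, Chst15, Tpst1 and the genes most like Bgn and Dcn were chosen after their values were seen.

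Differences were fitted with limma 3.58.1 (lmFit, eBayes with trend) in R 4.3.3 on log2(TPM + 1), without covariates, over 15148 genes with at least 1 TPM in at least 6 libraries. This scale understates the change of low genes. Adjustment was by Benjamini-Hochberg, and a call needed an adjusted p of at most 0.05 and a log2 difference of at least 1 in size. The fit was first tested on simulated data, with independent normal values for each gene and changes larger than those of the members. The simulation held no effects shared by the genes of a lung, so that it says nothing about how calls depend on single lungs. Levels were ordered by exact sign flips over 12 lungs (4096 flips), and the gaps within each genotype were added after the data were seen. Within-genotype correlations used all 518400 rearrangements within genotypes, and their p-values were added after the data were seen. Promoters came from RefSeq (GRCm38.p6), where 6 of 8 members matched. Positions came from GENCODE release M21, which matched 52133 genes by ID. The remaining steps ran in Python 3.11.15 (SciPy 1.17.1, NumPy 2.4.6, pandas 2.3.3, matplotlib 3.10.9). The alternatives were another pseudocount, other filters, 3 scalings, array weights, a block for the replicate number and libraries left out.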

Additional observations from a re-analysis of the deposited data

Results flagged for a closer look

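Of the 16 sets of 6 lungs (8 members in each genotype), 2 held a lung far from the others by Dixon's criterion. It was applied to TPM without logs and flags about 1 in 20 sets by chance when values are normally distributed. TPM need not be, so that the rate of chance flags here is unknown. Bgn was at 694.2 TPM in control replicate 1, above 282.9 to 395.9 TPM in the other control lungs, and this lung also had the highest sum of collagen fibril partners in its group (4200.5 TPM). Lum was at 18.9 TPM in control replicate 2, above 1.30 to 7.47 TPM in the others, and Dcn was highest in the same lung at 213.0 TPM.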

How the results depend on the processing

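The log2 differences of the members moved by less than 1 SD between lungs in all 147 comparisons with another setting, and those of Prelp (-1.71 to -1.35) and Ogn (-1.62 to -1.32) kept their sign in each. Those of Bgn (-0.32 to 0.32), Dcn (-0.51 to 0.29) and Lum (-0.18 to 0.52) did not. The settings reuse all or most of the same lungs, so that a move past 1 SD was unlikely from the start. Even changes of sign stayed within that bound, and nothing is concluded from it. The number of members called, 2, was 0 with no filter, 0 with median centring and 0 with the replicate block, and 0 to 2 with each library left out. Genes called over all genes tested, 75, were 6 with no filter, 27 with TPM rescaled without immunoglobulin genes, 39 with quantile normalization, 36 with median centring, 318 with array quality weights, 45 with the replicate block, 1430 without control replicate 1 and knockout replicate 2 together, and 15 to 576 with each library left out. Called genes of the lists, 4, were 0 with no filter, quantile normalization, median centring or the replicate block, 2 without immunoglobulin genes, 20 with array quality weights, 53 without those 2 lungs and 0 to 28 with each library left out. The cause was not tested, except that with no filter 31629 genes were tested. In the order of levels, 6 of 7 neighbouring pairs passed the threshold under every alternative run, but Lum and Aspn changed places without control replicate 2 or knockout replicate 1, 3, 4 or 5, each of which left 4 of the 6 pairs the same. Median centring and quantile normalization moved the median of all genes from 0.10 to -0.008 and 0.005. Lungs with the same replicate number correlated at -0.292 to 0.046 after centring, so that the numbers did not pair them and the block has no basis in the design. TPM without depth give no counting error for genes as low as Omd and Fmod.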
